A study of Drosophila melanogaster with 6 samples.

Results

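The EGFR group described here is a set of 9 genes that carry EGFR signaling from ligand to nucleus in *Drosophila* and turn it down again. They are the ligand genes *spi*, *vn* and *Krn*, the ligand-processing protease gene *rho*, the receptor gene *Egfr*, the nuclear effector gene *pnt*, and the feedback genes *aos*, *sty* and *kek1*. They were chosen by symbol, and all 9 were found among the 17559 genes of the count table. Wing discs of wandering larvae of the last instar were compared between 3 control and 3 *Nup98-96* knockdown libraries. Every animal carried UAS-P35, which makes a baculovirus inhibitor of caspases, together with ap-Gal4, UAS-GFP and tub-Gal80TS. Control animals added UAS-white RNAi JF01540, against an eye pigment gene, and knockdown animals added UAS-Nup98 RNAi HM05048. Temperature-sensitive Gal80 held Gal4 off for 4 days at 18°C, and Gal4 was then active for 72 h at 28°C. *ap*-Gal4 drives in the dorsal compartment, and each library was polyadenylated RNA of 40 whole discs, so that the undriven ventral cells are in every value. The labels do not give the age of the larvae beyond this schedule. The knockdown is not seen in the reads of its target: *Nup98-96* stood at 330.4, 335 and 316 CPM in control and at 317, 302 and 313 CPM in knockdown, with overlapping groups (log2 fold change -0.07, SE 0.04, adjusted p = 0.118). The target of the control RNAi, *w* (the *white* gene), ran from 484 to 572 CPM in control and from 859 to 1069 CPM in knockdown, which is the order its label gives. Control and knockdown name libraries as they were labelled, here and in every direction given.

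EGFR is a receptor tyrosine kinase that signals through Ras, Raf, MEK and the MAP kinase Rolled to ETS transcription factors. Spi and Krn are made as membrane-bound precursors that Star carries out of the endoplasmic reticulum and Rhomboid cuts, whereas Vn, a neuregulin-like protein, is secreted without being cut. Pnt activates target genes and competes with the repressor Yan, the product of *aop*. Argos binds Spi outside the cell, Sprouty acts inside it and Kekkon1 binds the receptor, and each is induced by the signal it limits. In the wing disc the pathway is known for specifying the notum, for placing the veins and for cell growth and survival.

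*vn* and *rho* were higher in knockdown discs, *Egfr* was lower by an amount just under the fold threshold, and the other members differed by less. To be called, a gene needed both an adjusted p under 0.05 and a log2 fold change, knockdown minus control, beyond 0.5 in size. The p-values came from edgeR's quasi-likelihood test across the 7942 genes that passed a filter on low counts. All 9 members passed that filter. Levels are TMM-normalized CPM, counts scaled to a common library size, a mean stands with the SD of its 3 libraries after ±, and SE is the standard error of a log2 fold change (n = 3 for each group throughout). Of the 9, 2 were called higher and 7 were not called, where 26.6% of all genes tested were called, 15.3% higher and 11.2% lower. The count called lower was 0 with edgeR, with DESeq2 and with voom, and 3 members were lower at an unadjusted p under 0.05 in edgeR. Without a minimum fold change 6 members passed, 3 higher and 3 lower, where 65.8% of all genes tested passed, 33.3% higher and 32.5% lower. The libraries did not overlap between groups in 7 members, where this held for 72.8% of all genes tested. These shares of the members lay near those of all genes. The median log2 fold change of the members was 0.066 and that of all genes tested was 0.0014, and the median absolute value was 0.24 for the members and 0.26 for all genes.

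**Figure D1:**
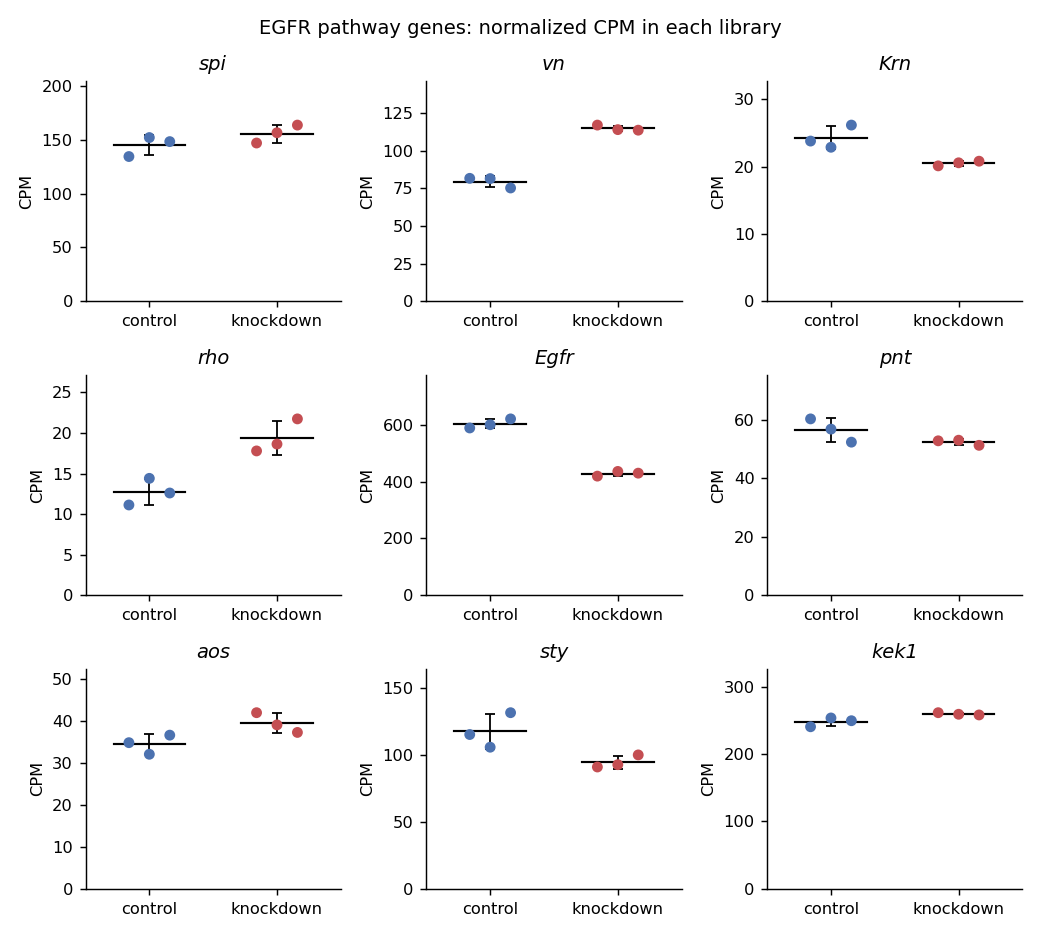
Each panel plots 1 gene, with normalized CPM on a linear axis from 0 and control (blue) and knockdown (red) libraries as points. Black lines are group means with SD (n = 3 a group), and *Egfr*, *vn*, *rho*, *Krn*, *sty*, *aos* and *kek1* have groups that do not overlap while *spi* and *pnt* have groups that do.

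Among the ligand genes, *vn* was the member that rose. *vn* (FBgn0003984, chromosome 3L of BDGP6, 5813338 to 5845664, minus strand) measured 81.6, 81.5 and 75.2 CPM in the control replicates against 117, 113.9 and 113.6 CPM in the knockdown replicates. Every knockdown library of *vn* lay above every control library. The mean rose from 79.4 ± 3.65 to 114.8 ± 1.85 CPM, which is 1.45-fold (log2 fold change 0.53, SE 0.04, adjusted p = 4.86e-05). The difference is close to the fold threshold: without control replicate 3, the control library with the lowest *vn*, the log2 fold change was 0.49 and the gene was not called (adjusted p = 4.41e-05). In whole discs a change in RNA per cell and a change in the number of cells that express a gene cannot be told apart.

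*spi*, the ligand gene with the highest level per exon length, was at 134.5, 152 and 148 CPM in the control libraries. In the knockdown libraries *spi* was at 147, 157 and 164 CPM. The groups overlapped, since control replicates 2 and 3 lay above knockdown replicate 1. *spi* was not called (log2 fold change 0.10, SE 0.06, adjusted p = 0.172). It lies on chromosome 2L of BDGP6, 19567900 to 19577315, minus strand (FBgn0005672), and the microRNA genes *mir-2a-1*, *mir-2a-2* and *mir-2b-2* lie inside its span on the same strand without sharing exon bases.

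*Krn* encodes Keren, a second ligand of the Spi type. *Krn* measured 23.8, 22.9 and 26.2 CPM in the control replicates against 20.1, 20.6 and 20.8 CPM in the knockdown replicates. All 3 knockdown libraries were lower than all 3 control libraries. The difference passed the adjusted p but not the fold threshold (log2 fold change -0.24, SE 0.06, adjusted p = 0.00766). *Krn* (FBgn0052179, chromosome 3L, 17649562 to 17654280, minus strand) shares 289 exon bases, 21.3% of its exon length, with *Ndfip* on the same strand. How reads of the shared bases were assigned is not given in the sources used here. *Ndfip* had a log2 fold change of 0.29, opposite in sign to *Krn*.

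The ligand mix was compared per exon length within each library, as each gene's share of the summed CPM divided by exon length in kilobases (RPKM) of *spi*, *vn* and *Krn*. For *vn* this share came to 14.5, 13.4 and 12.4% in the control replicates and to 18.9, 17.7 and 17.0% in those with knockdown. The *Krn* share was 16.4, 14.6 and 16.8% in control and 12.6, 12.3 and 12.1% in knockdown. So *vn* and *Krn* exchanged rank, from *Krn* above *vn* in each control library to *vn* above *Krn* in each knockdown library. The *vn* share was 4.42 percentage points higher and the *Krn* share differed by -3.57 points (two-sided exact permutation p = 0.1 for each, n = 3 each, the smallest p that 3 against 3 allows). The *spi* share was 70.6 ± 1.51% in control and 69.8 ± 1.18% in knockdown (exact permutation p = 0.5), with overlapping groups. The 3 tests form 1 family, and after Benjamini-Hochberg adjustment their smallest p was 0.15.

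**Figure D2:**
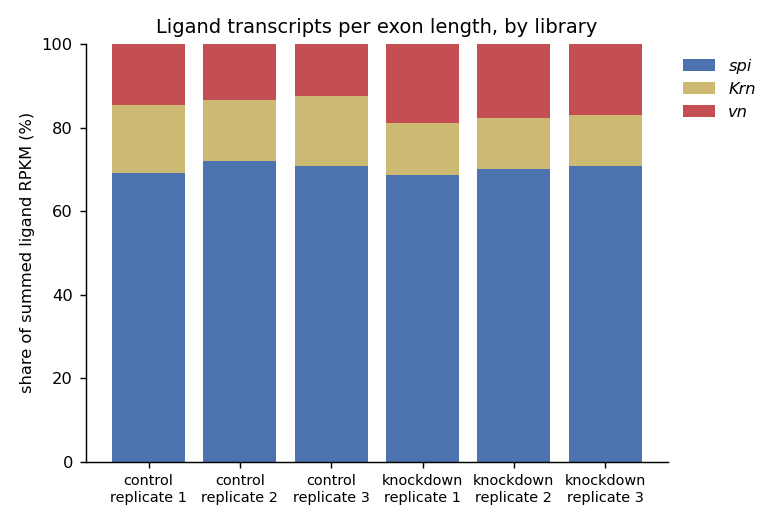
Stacked bars give, for each of the 6 libraries, the share in percent of *spi* (blue), *Krn* (yellow) and *vn* (red) in the summed RPKM of the ligand genes. The *vn* part spans 12.4 to 14.5% in control and 17.0 to 18.9% in knockdown libraries, and *spi* stays between 68.5 and 72.1% in all 6.

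*rho*, which encodes the protease that releases Spi and Krn and marks vein primordia, had the highest log2 fold change of the 9 members and the lowest level. It measured 11.1, 14.4 and 12.6 CPM in the control replicates against 17.8, 18.6 and 21.7 CPM in the knockdown replicates. The groups did not overlap, and the spread was wider than for the other members, with a coefficient of variation of 12.9% in control and 10.7% in knockdown. The mean rose from 12.7 ± 1.65 to 19.4 ± 2.08 CPM, which is 1.53-fold (log2 fold change 0.61, SE 0.11, adjusted p = 0.00301). Leaving out any 1 library gave log2 fold changes between 0.52 and 0.70 and kept the call. The counts behind it were 1059 to 1898 per library. *rho* (FBgn0004635, chromosome 3L, 1463811 to 1468944, plus strand) lies within the span of *Ptp61F* on the other strand without sharing exon bases.

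Neither *vn* nor *rho* was called in edgeR's glmTreat, which tests against a log2 fold change of 0.5 rather than against 0 (adjusted p = 0.368 and 0.292). The data thus place both above 0 but do not separate either from the fold threshold.

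*Egfr* (FBgn0003731, chromosome 2R, 21522420 to 21559977, plus strand) had the highest control level of the 9, both in CPM and per exon length. It measured 590, 601 and 622 CPM in the control replicates against 419.9, 436 and 430.4 CPM in the knockdown replicates. The groups were far apart for their spread, with coefficients of variation of 2.69% and 1.95%. Means were 604 ± 16.2 (control) and 429 ± 8.38 CPM (knockdown), 1.41-fold lower (log2 fold change -0.49, SE 0.03, adjusted p = 2.43e-05). Its adjusted p was the smallest of the 9 members, and the gene was not called because the log2 fold change of -0.495 missed the threshold of 0.5. It was called lower without control replicate 1 (-0.51), without control replicate 2 (-0.51) and with no filter on low counts (-0.51). Per exon length *Egfr* stood first and *spi* second in control, at 87.0 ± 2.34 and 79.8 ± 5.11 RPKM, and this order was turned in knockdown, at 61.7 ± 1.206 for *Egfr* and 85.7 ± 4.60 RPKM for *spi*.

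*pnt*, the ETS activator gene at the end of the pathway, measured 60.3, 56.8 and 52.3 CPM in the control replicates against 52.8, 53.0 and 51.3 CPM in the knockdown replicates. Control replicate 3 lay among the knockdown libraries. *pnt* was not called (log2 fold change -0.11, SE 0.06, adjusted p = 0.124). The gene spans 55937 bases of chromosome 3R (FBgn0003118, 23290231 to 23346167, minus strand) with 4 annotated transcripts from 3 start sites, and counts per gene do not separate them.

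*aop*, the gene of the repressor Yan, measured 264, 270 and 334 CPM in the control replicates against 287, 269.6 and 316 CPM in the knockdown replicates. Its groups overlapped (log2 fold change 0.0075, SE 0.10, adjusted p = 0.954). Within a library the log2 ratio of *aop* to *pnt* CPM was 2.35 ± 0.29 in control and 2.47 ± 0.14 in knockdown (two-sided exact permutation p = 0.6).

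None of the 3 feedback genes was called, and their differences were not all of 1 sign. *aos*, which encodes the secreted inhibitor Argos, measured 34.8, 32.0 and 36.55 CPM in the control replicates against 41.9, 39.0 and 37.2 CPM in the knockdown replicates. The groups were narrowly apart, with 36.55 CPM the highest control value and 37.2 the lowest knockdown value. *aos* passed the adjusted p and not the fold threshold (log2 fold change 0.19, SE 0.06, adjusted p = 0.0350). Its adjusted p in edgeR was over 0.05 without control replicate 2 (0.127), knockdown replicate 1 (0.107) or knockdown replicate 2 (0.0569), with no filter on low counts (0.0732) and with a replicate block (0.0533). Against *spi* in the same library the log2 ratio of *aos* was -2.07 ± 0.16 in control and -1.99 ± 0.16 in knockdown (two-sided exact permutation p = 0.5). With the *aop* and *pnt* ratio this makes a family of 2 tests with a Benjamini-Hochberg adjusted p of 0.6 for each. *aos* is FBgn0004569 on chromosome 3L, 16470386 to 16483650, minus strand.

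*sty* encodes Sprouty, an inhibitor that acts inside the cell on the Ras branch. *sty* measured 115.1, 105.7 and 131 CPM in the control replicates against 90.9, 92.65 and 99.9 CPM in the knockdown replicates. The knockdown libraries all lay below the control libraries, which differed among themselves more than those of *Egfr* or *kek1* did. *sty* was not called, for its size (log2 fold change -0.31, SE 0.08, adjusted p = 0.0129). Without knockdown replicate 1 or knockdown replicate 2 its adjusted p in edgeR was 0.0513 or 0.0517. It is FBgn0014388 on chromosome 3L, 3401153 to 3424935, minus strand.

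*kek1* encodes a transmembrane protein with leucine-rich repeats that binds the receptor. *kek1* measured 240.3, 253 and 249 CPM in the control replicates against 261, 259 and 258 CPM in the knockdown replicates. It was the least changed member and one of the most evenly measured, with the groups apart but by little (log2 fold change 0.07, SE 0.03, adjusted p = 0.117). It is FBgn0015399 on chromosome 2L, 12817000 to 12822787, minus strand, with all its exon sequence in 1 block.

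Per exon length, the control order after *Egfr* and *spi* was *kek1* at 42.8, *sty* at 21.6, *Krn* at 17.9, *vn* at 15.2, *aos* at 12.2, *pnt* at 9.23 and *rho* at 4.24 RPKM. In the knockdown libraries *vn* stood at 21.9 RPKM, above *sty* at 17.4 and *Krn* at 15.1, and the order below them was unchanged. In neither group did the libraries of 2 neighbours in the order overlap. This order holds for merged exon length, which for some genes is well above the length of the longest transcript. For *pnt* the 2 lengths are 6119 and 4074 bases, and for *sty* 5438 and 4280. The order by longest transcript was not computed, so the places of *pnt* next to *aos* and of *sty* next to *vn* may depend on the length used. Among the genes tested, *Egfr* lay at percentile 90.3 of control RPKM and *rho* at percentile 18.2.

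Other genes were taken from lists by role in the pathway. The lists also hold *puc*, the gene of a JNK phosphatase, and ETS-domain genes such as *Ets98B*. Of 40 such genes 37 passed the filter, and of these 3 were called higher, 3 were called lower and 31 were not called, where 15.3% of all genes tested were called higher and 11.2% lower. Their median log2 fold change was -0.11, against 0.0014 for all genes tested, and 9 passed the adjusted p higher and 17 lower when no minimum fold change was set, where 33.3% and 32.5% of all genes tested did.

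**Figure D3:**
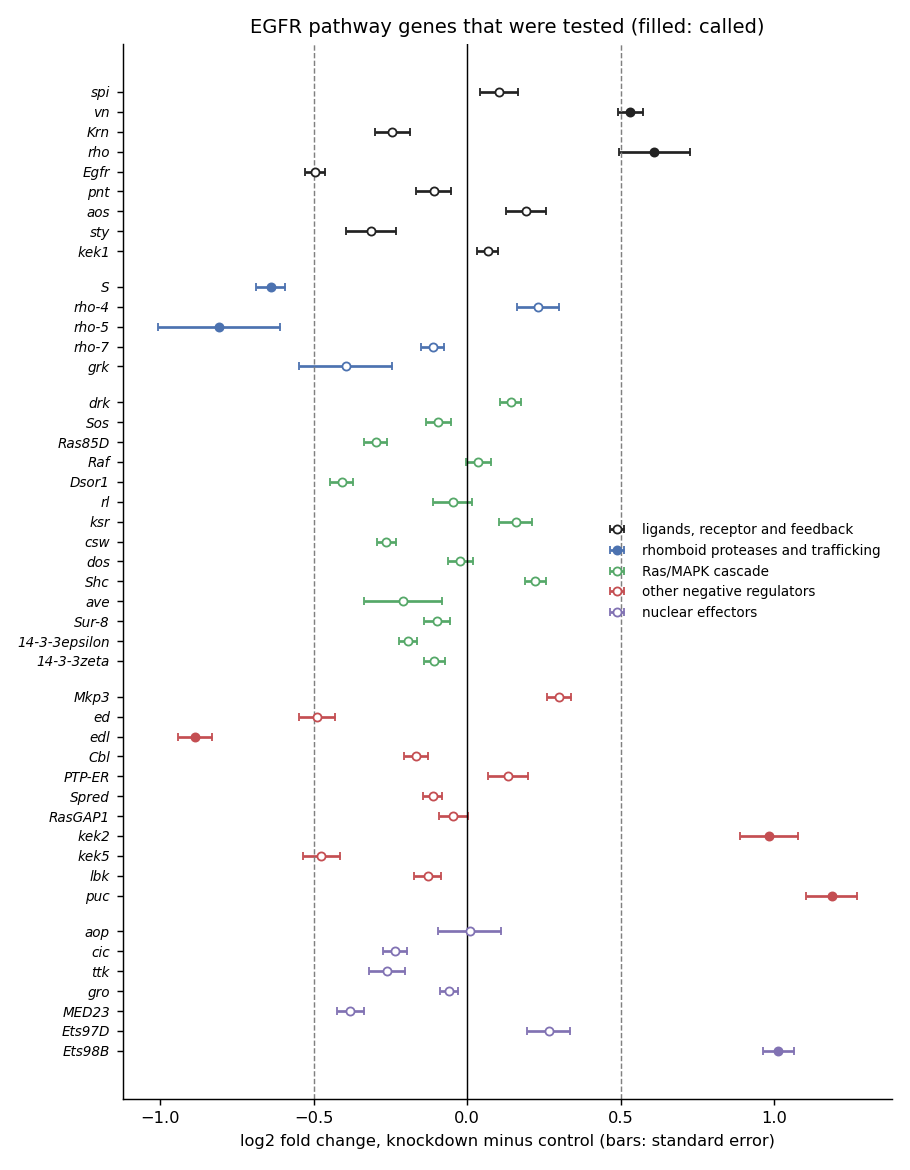
The log2 fold change of each tested member and listed gene (knockdown minus control, bars are standard errors) is grouped by role, with filled points for called genes and dashed lines at 0.5 and -0.5. *vn*, *rho*, *kek2*, *puc* and *Ets98B* are filled on the right and *S*, *rho-5* and *edl* on the left. None of the 14 Ras/MAPK genes is filled, where 26.6% of all genes tested were called.

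Of the 5 tested genes of ligand processing and of the rhomboid family, which include the ligand gene *grk*, 2 were lower. Of all genes tested, 11.2% were called lower. *S* encodes Star, which moves the ligand precursors to the compartment where Rhomboid acts. *S* measured 153, 160.0 and 168 CPM in the control replicates against 102, 99.3 and 107 CPM in the knockdown replicates. Every knockdown library lay below every control library (log2 fold change -0.64, SE 0.05, adjusted p = 3.82e-05), so that *S* and *rho*, which act on the same precursors, differed in opposite directions. *rho-5*, a rhomboid family gene whose product lacks protease activity, was lower at a low level (log2 fold change -0.81, SE 0.20), from 3.45 ± 0.245 to 1.97 ± 0.421 CPM. The protease gene *rho-4* had means of 116 ± 11.4 (control) and 136.5 ± 2.37 CPM (knockdown) and was not called. *ru* and *stet*, which encode the proteases closest to Rhomboid in function, did not pass the filter, with at most 1.23 CPM in any library.

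Among these lists by role, the cascade between receptor and nucleus had the smallest median absolute log2 fold change, 0.15, against 0.26 for all genes tested. None of 14 tested Ras/MAPK genes was called by edgeR (at an unadjusted p under 0.05, 3 were higher and 5 lower), where 26.6% of all genes tested were. Without a minimum fold change 3 passed higher and 5 lower, where 33.3% and 32.5% of all genes tested did. The log2 fold changes of the 14 ran from -0.41 to 0.22. The lowest was *Dsor1*, the MEK gene, with 44.4 ± 1.43 (control) and 33.5 ± 0.217 CPM (knockdown). *Ras85D* was at 259 ± 9.39 and 210 ± 1.91 CPM, with a log2 fold change of -0.30. The highest was *Shc*, an adaptor gene, with a log2 fold change of 0.22.

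Of 11 further negative regulators, 2 were higher and 1 was lower, where 15.3% and 11.2% of all genes tested were. *puc*, the higher of the 2, encodes a phosphatase of JNK rather than of the EGFR branch and was 2.28-fold higher. *kek2*, a relative of *kek1*, measured 3.56, 3.67 and 3.99 CPM in the control replicates against 7.39, 7.11 and 7.67 CPM in the knockdown replicates. Its groups were clearly apart (log2 fold change 0.98, SE 0.09, adjusted p = 0.000126), at a level far below that of *kek1*. *Mkp3*, the gene of a MAP kinase phosphatase, had a log2 fold change of 0.30, and *ed*, an adhesion gene that antagonizes the receptor, one of -0.49. Neither reached the fold threshold.

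*edl*, which encodes a protein that binds both Yan and Pnt, was the lower gene among these regulators and among the nuclear effectors, where it is also listed. *edl* measured 26.0, 23.7 and 26.0 CPM in the control replicates against 13.2, 14.1 and 13.7 CPM in the knockdown replicates. It was 1.85-fold lower with no overlap (log2 fold change -0.89, SE 0.05, adjusted p = 1.78e-05). Of the 8 tested nuclear effector genes 1 was called higher and 1 lower, where 15.3% and 11.2% of all genes tested were. The higher gene was *Ets98B*, an ETS-domain gene, with a log2 fold change of 1.01, from 20.6 ± 1.26 to 41.6 ± 0.457 CPM.

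The listed genes that pattern the notum were lower together. All 6 that were listed were called lower, where 11.2% of all genes tested were. Their median log2 fold change was -1.36. The list was chosen with earlier results of these data known, so the count is not a test of notum genes as a set. The Iroquois genes *ara*, *caup* and *mirr* are known to need EGFR signaling in the notum. *ara* measured 133, 143 and 156 CPM in the control replicates against 48.2, 50.8 and 51.0 CPM in the knockdown replicates. The mean of *caup* dropped to 84.1 ± 1.50 CPM from 193 ± 5.04 CPM, and *mirr* fell with a log2 fold change of -0.89. *pnr*, the GATA factor gene of the medial notum and known as a target of Dpp, fell from 62.3 ± 2.25 to 16.0 ± 0.546 CPM (log2 fold change -1.96, SE 0.05, adjusted p = 3.56e-07). *eyg*, a Pax gene, had a log2 fold change of -1.76, and *tup*, a LIM-homeodomain gene, was the least changed at -0.74. The notum lies in the dorsal tissue where the RNAi was driven. The difference of these genes therefore cannot be told apart from a difference in the amount of that tissue. *ara* and *caup* are also listed among the vein genes, and *eyg* among the disc epithelium genes. Lower calls were not confined to the notum list. Among the other disc epithelium genes *Dll* (log2 fold change -1.67), *nub* (-0.87), *vg* (-0.70) and *hth* (-0.66) were called lower too. *rn* (0.12) and *tsh* (-0.07) were not called.

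**Figure D4:**
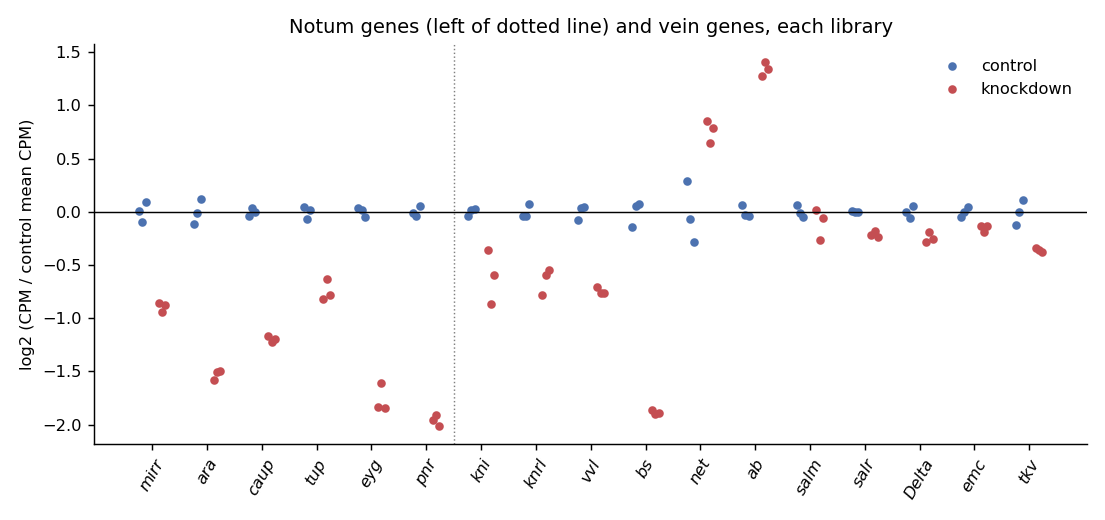
For 6 notum genes and 11 vein or intervein genes, points give log2 of each library's CPM over the control mean, with control libraries in blue and knockdown libraries in red. The 6 notum genes sit below 0 in each knockdown library, *bs* lies near -1.9, and *net* and *ab* lie above 0.

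Of 13 vein and intervein genes, 2 were higher and 6 were lower, where 15.3% and 11.2% of all genes tested were. Those lower were the Iroquois genes *ara* and *caup*, the intervein gene *bs*, and the genes *vvl* (log2 fold change -0.75), *knrl* (-0.63) and *kni* (-0.59). *kni* and *knrl* act in forming a vein and *vvl* is expressed in veins, so that genes of veins were called in both directions. *bs*, the gene of serum response factor in intervein cells, which EGFR signaling is known to repress in veins, was at 111, 128 and 129.7 CPM in the control libraries. In the knockdown libraries *bs* was at 33.8, 33.0 and 33.2 CPM. This was 3.69-fold lower with no overlap (log2 fold change -1.89, SE 0.06, adjusted p = 1.35e-06). *ab*, a gene of vein formation, rose from 246 ± 9.46 to 622 ± 27.9 CPM (log2 fold change 1.34). *net*, which is known to repress *rho* in intervein cells, measured 29.3, 22.8 and 19.7 CPM in the control replicates against 43.1, 37.4 and 41.3 CPM in the knockdown replicates. *net* and *rho* were therefore both higher in every knockdown library. The median log2 fold change of the 13 genes was -0.36.

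Some markers of the disc and of other cells differed between the groups too. Beside the counts called below, 15.3% of all genes tested were called higher and 11.2% lower. The disc epithelium genes *nub*, *vg*, *hth*, *Dll*, *eyg*, *rn* and *tsh* were detected in every library, with a summed level of 2098 to 2226 CPM in control and 1466 to 1495 CPM in knockdown, and 5 of 7 were lower. Of 7 genes of adepithelial myoblasts, which lie under the notum, 4 were lower, and their sum was 353 to 377 CPM in control and 275 to 294 CPM in knockdown. Of 6 tracheal genes 3 were higher and 3 were lower, with sums of 1608 to 2214 and 1887 to 2049 CPM. Higher were *Gasp* (log2 fold change 0.98), *serp* (0.77) and *verm* (0.69), and lower were *trh* (-0.85), *pio* (-1.37) and *dysf* (-1.74). The highest control means of the 6 were those of *pio* (844 CPM) and *verm* (620 CPM), which differed in opposite directions, so the sums hide these differences. The 6 fat body genes summed to 2541 CPM in control replicate 1, to 24.8 CPM in the lowest control library and to 44.9 to 79.1 CPM in knockdown. Of these 6, *Fbp1* (log2 fold change -4.44) and *Apoltp* (-3.96) were called lower. Of 4 tested hemocyte genes, *srp* (log2 fold change -2.27) and *eater* (-1.24) were called lower. *NimC1* and *He* did not pass the filter, with means of 0.875 and 0.879 CPM in control against 0.238 and 0.264 CPM in knockdown and no overlap. All 6 hemocyte genes, led by *Hml* and *Pxn*, summed to 24.0 to 33.1 CPM in control and 17.0 to 33.1 CPM in knockdown, and 5 salivary gland genes to 7.61 to 18.2 and 2.51 to 15.3 CPM. None of the markers of these lists was at 0 in any library. Of 12 genes of the ecdysone response, 3 were higher and 6 were lower. Their summed level was 5359 to 9228 CPM in control and 988 to 1002 CPM in knockdown. Lowest by log2 fold change were *ImpE2* (-9.11), from 5425 ± 1484 to 9.84 ± 3.69 CPM, and *Hr3* (-8.45). Highest were *ftz-f1* (3.10), from 12.5 ± 7.91 to 107 ± 6.15 CPM, and *Ldh* (1.91). Whether the groups differed in developmental stage was not tested. The part of these differences in the values of the EGFR genes was not tested. Without control replicate 1, *vn* and *rho* kept their calls, with log2 fold changes of 0.55 and 0.52. For *rho* this was down from 0.61, and *Egfr* was then called lower (-0.51). Leaving out this library does not remove the other marker and ecdysone differences between the groups.

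**Figure D5:**
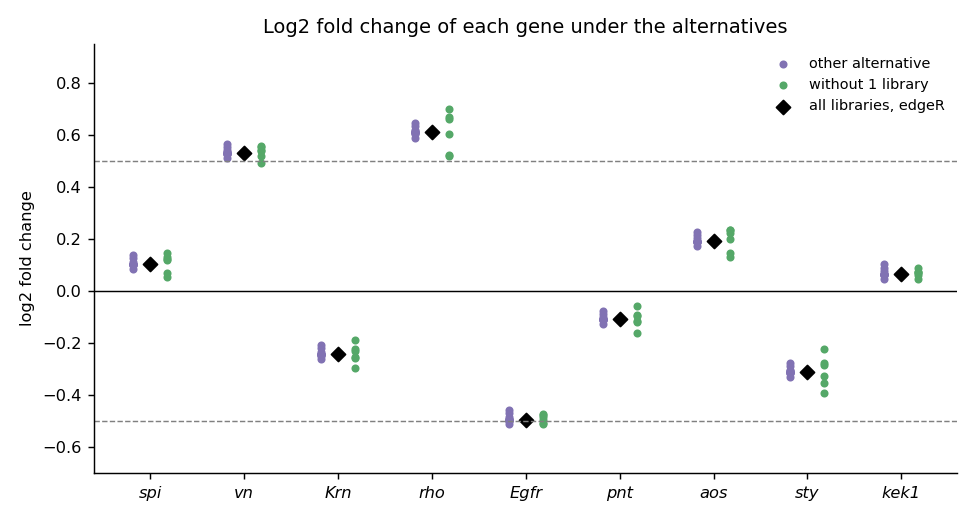
Each gene's log2 fold change is plotted with all libraries in edgeR (black diamonds), under other settings (purple) and without 1 library (green), with dashed lines at the fold threshold of 0.5 and -0.5. No gene changes sign, *vn* and *Egfr* straddle a dashed line, and *rho* ranges from 0.52 to 0.70.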

How the data were processed

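RNA of 6 pools of larval wing discs was sequenced, 3 control and 3 knockdown. Per the methods, reads were mapped on BDGP6 by Rsubread, and the authors deposited whole-number counts per gene from featureCounts, made without strand from directional libraries and not normalized, so that reads of overlapping genes on opposite strands cannot be told apart. Library totals were 93428696, 97629770 and 110330112 counts in control and 70342787, 100205246 and 86766625 in knockdown. The deposited table of the authors' own fold changes, p-values and scores was not used here.

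Counts were scaled by TMM. Low genes were removed by a Jaccard similarity filter after the paper's HTSFilter step (thresholds 1 to 200 in 100 steps, loess span 0.3, index over all pairs of libraries), which chose 200 normalized counts. The 7942 genes left were tested with edgeR 4.0.16 (glmQLFit, glmQLFTest) in R 4.3.3, with Benjamini-Hochberg adjustment, whereas the paper used voom. The standard error is the absolute log2 fold change over the square root of F. CPM are TMM-normalized, and RPKM divide them by merged exon length from a BDGP6 annotation, which held 17253 of the 17559 genes. P-values measure the spread between disc pools. No 2 libraries of a group agreed within counting error, at 12.0 to 118 for chi-square over its degrees of freedom.

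The members and lists were chosen with earlier results of these data known. Named are all members, *aop*, up to 2 called genes from each end of every pathway list, ordered by log2 fold change, and genes that touch a result. Some others (*rho-4*, *Dsor1*, *Ras85D*, *Shc*, *Mkp3*, *ed*, *mirr*, *tup*) were chosen after their values were seen. No called member reached the log2 fold change of 1 set for naming genes of like pattern. The symbols *cnk*, *ap*, *btl* and *br* were not matched to a gene of the table and were left out. In simulated libraries of 3 against 3, edgeR called 44% of genes with a log2 fold change of 0.5 and 90% of those with 1. There were 8 false calls among 7638 unchanged genes. These calls needed the same fold threshold of 0.5, which by itself limits both the share called at 0.5 and the false calls. Alternatives were RLE, upper-quartile or no further scaling, filterByExpr or no filter, DESeq2 1.42.0, voom in limma 3.58.1, no minimum fold change, glmTreat, a replicate block and leaving out each library. A Jaccard index within groups and the counts of notum and vein genes called were added after the data were seen.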

Additional observations from a re-analysis of the deposited data

How the results depend on the processing

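No member changed the sign of its log2 fold change under any of the 17 alternatives. The number of members called higher was 2, and 0 with glmTreat, where *vn* and *rho* were lost, and it was 1 to 2 without a single library. The number called lower was 0, and it was 1 with no filter on low counts (*Egfr*), 3 with no minimum fold change, and 0 to 1 without a single library. The call of *vn* was lost without control replicate 3 (0.49). *Egfr* was called lower without control replicate 1 (-0.51), without control replicate 2 (-0.51) and with no filter (-0.51). With no minimum fold change *Egfr* (-0.49), *Krn* (-0.24), *sty* (-0.31) and *aos* (0.19) also passed. Of the other pathway genes 3 were higher, and 9 with no minimum fold change. Of the same genes 3 were lower, against 5 with no filter, 17 with no minimum fold change and 3 to 5 without a single library, where 5 were reached without control replicate 1 and without knockdown replicate 1. Vein genes called lower were 10 with no minimum fold change, and those called higher 1 with glmTreat. All 6 notum genes were called lower under every alternative. All genes called were 2109, against 3169 with no filter, which tests 15021 genes, and 5226 with no minimum fold change. The shifts of ligand shares and of the *aos* and *aop* ratios kept their sign without each library. The replicate numbers did not pair the samples, with correlations of deviations of -0.167, 0.000115 and 0.0124 for equal numbers. With the replicate number as a block, 2 members were higher and none was lower, with log2 fold changes of 0.53 for *vn* and 0.61 for *rho*. The standard error of *rho* was the widest of the 9, and its cause was not tested.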

Other observations

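Of the 18 genes that flank the 9 members on either side, 8 were tested and 4 were called, where 26.6% of all genes tested were called. *twz*, 269 bases from *Egfr*, had a log2 fold change of -0.81. *CG7484*, 337 bases from *Krn*, had one of -0.58. The genes on either side of *aos* differed in opposite directions, with log2 fold changes of -1.36 for *dsx-c73A* and 0.77 for *CG42514*. The tested neighbours of *spi*, *vn*, *sty* and *pnt* were not called. Whether reads of a neighbour reach a member's count was not tested.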
